A study of Mus musculus with 20 samples.

Results

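The genes described here are 10 chemokine genes that glial cells are known to express when they are activated: Ccl2, Ccl3, Ccl4, Ccl5, Ccl6, Ccl9, Ccl12, Cxcl10, Cxcl16 and Cxcl14. They were chosen by name from the 39056 genes of the count table, with earlier results of these data known, and all 10 were found in it. Counts and medians of the members set beside those of all genes are therefore descriptions of this list. Chemokines are small secreted proteins that bind receptors coupled to G proteins and draw leukocytes along a gradient. The CCL class mostly acts on monocytes, macrophages and T cells. Cxcl10 draws T cells through the receptor Cxcr3, and Cxcl16 is made as a membrane protein that is shed and binds Cxcr6. In the brain, microglia and astrocytes are the best known sources of several of these ligands, and microglia that gather around amyloid are known to express Ccl3, Ccl4 and Ccl6.

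RNA-seq read counts came from the left hippocampus of 20 female C57BL/6 mice aged 12 to 13 months, taken after behavioural tests and perfusion with saline. The mice formed 4 groups of 5. WT Non-Tg mice carried both copies of miR-34a and no transgene. KO Non-Tg mice were miR-34a-/-, with a constitutive deletion in the whole body and no transgene. WT Tg-SwDI mice were miR-34a+/+ and carried a human APP transgene with the Swedish, Dutch and Iowa mutations, driven in neurons by the Thy1 promoter. KO Tg-SwDI mice were miR-34a-/- and carried the same transgene. The deletion removed miR-34a from every cell type, and the transgene was not driven in glia. The study asked what miR-34a does in a mouse with amyloid pathology, and these groups give the transgene effect with and without miR-34a and the effect of the deletion with and without the transgene. The libraries were of bulk tissue, so that fewer cells of a type and less RNA per cell cannot be told apart.

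Totals were between 19549622 and 21066868 counts per mouse. Values below are CPM (the count relative to the TMM-scaled library size), and 3 counts, taken here as the floor of detection, were worth 0.141 to 0.165 CPM. The transgene label was checked with Thy1, the gene whose promoter drives the transgene. Its counts were between 14341 and 15427 in Non-Tg mice and between 40573 and 60265 in Tg-SwDI mice. Levels of miR-34a were not analysed here. Microglia and macrophage markers (6 genes, Csf1r, Itgam, Cd68, Laptm5, Aif1 and Ptprc) summed to between 148 and 222 CPM in Non-Tg mice, between 349 and 416 CPM in WT Tg-SwDI mice and between 509 and 615 CPM in KO Tg-SwDI mice. Choroid plexus markers fell into separate ranges across the libraries, from 265 to 708 summed CPM in 9 libraries and from 2980 to 6701 in the other 11. All 5 KO Non-Tg libraries, 2 WT Non-Tg libraries (replicates 3 and 6), 1 WT Tg-SwDI library (replicate 7) and 1 KO Tg-SwDI library (replicate 2) were in the low range. KO Tg-SwDI replicate 8 stood apart from its group over all genes, with a chi-square per gene of 40.3 to 60.8 against the other 4 libraries where all other pairs within a group had 2.39 to 17.6. Its TMM factor was 0.901 and those of the other libraries were 0.981 to 1.03. No gene of the endothelial (5 genes), pyramidal and granule cell (6) or immediate early (8) lists was called in any comparison, and of 13 interneuron genes 1 was lower with the transgene in WT and 2 in KO mice.

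The mature microRNA that the KO mice lack and the promoter stretches of Cxcl10 and Ccl9 that hold short motifs of inflammatory factors are shown first, since the KO and transgene comparisons concern these genes. The microRNA lies on chromosome 4 (GRCm38.p6, 150068473-150068494, plus strand), and its seed, bases 2 to 8, is in capitals.
mmu-miR-34a-5p: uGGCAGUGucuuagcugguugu
A match to the whole seed was found in the longest annotated 3'UTR (GENCODE M21) of 1 of the 10 chemokine genes, Cxcl14, where it began at base 1009 of 1149. The share over the 14697 tested genes with a 3'UTR was 17.3%. The stretch is printed with the match in capitals.
Cxcl14 3'UTR: cccatgccacaCACTGCCcctcattagag
No seed match was found in the 3'UTR of Ccl2, Ccl3, Ccl4, Ccl5, Ccl6, Ccl9, Ccl12, Cxcl10 or Cxcl16, which says only that these letters are not in these windows.

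Promoters of 6 of the 10 genes (Cxcl10, Ccl12, Ccl9, Ccl6, Ccl3 and Cxcl14) were given in RefSeq for GRCm38.p6 as windows from 250 bases before to 50 bases after the start of the gene. On both strands 4 motifs were searched, namely GAAANNGAAA (ISRE, an element bound by interferon regulatory factors), the kappaB consensus, TGANTCA (AP-1) and TTCNNNGAA (GAS, an element bound by STAT factors). Over 32851 windows the ISRE letters were in 3.44%, kappaB in 8.46%, AP-1 in 7.81% and GAS in 8.3%. Cxcl10 held the ISRE, the AP-1 motif and kappaB matches at 2 places, the nearer of which held overlapping matches on both strands. Ccl9 held kappaB and AP-1, and Cxcl14 held ISRE and GAS letters. The windows of Ccl3, Ccl6 and Ccl12 held none of the 4 motifs. Matches are in capitals, in the direction of the gene, and Cxcl10, Ccl9 and Cxcl14 lie on the minus strand.
Cxcl10 ISRE, chr5:92349083-92349112: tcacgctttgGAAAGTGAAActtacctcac
Cxcl10 kappaB, chr5:92349029-92349058: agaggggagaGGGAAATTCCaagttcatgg
Cxcl10 kappaB, chr5:92348974-92349003: tcggtttacaGGGGACTTCCctcgggttgc
Cxcl10 AP-1, chr5:92348944-92348973: ggagccttgcTGAGTCAtctccaaagtcag
Ccl9 kappaB (reverse strand of the gene), chr11:83578652-83578681: tttgaactttGGAAAGCCCCaagtcacctt
Ccl9 AP-1, chr11:83578670-83578699: ttactctctcTGAATCAatttgaactttgg
These matches are descriptions of the letters, and binding was not measured.

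Of the 10 genes, 8 lie on chromosome 11 (mm10). Ccl5 (83525778-83530518), Ccl9 (83572919-83578636), Ccl6 (83587882-83593087), Ccl3 (83647844-83649355) and Ccl4 (83662584-83664683) are in 1 cluster, Ccl2 (82035571-82037453) and Ccl12 (82101845-82103400) in another, and Cxcl16 (70453983-70459984) lies apart. Cxcl10 is on chromosome 5 (92346638-92348889) and Cxcl14 on chromosome 13 (56288643-56296551). The exons of Cxcl10 overlap those of Art3 on the opposite strand by 133 bases, and the exons of Cxcl16 overlap those of Zmynd15 by 552 bases. The strand setting of the counting was not given in the sources used here. Mean levels were 2.47 to 3.22 CPM per group for Art3 and 0.374 to 0.687 CPM for Zmynd15. Without a known strand setting, reads from each gene and its partner cannot be told apart, and the values of Cxcl10 and Cxcl16 carry that uncertainty. None of the 50-base stretches of Ccl2, Ccl3, Ccl4, Ccl5, Ccl6, Ccl12 and Cxcl14 transcripts was shared with another gene, and 1.97% of those of Ccl9 were.

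Levels between genes were compared per length, as CPM per kilobase of exonic sequence. Cxcl14, a chemokine that neurons are also known to express, had the highest level in every group, with 53.7 ± 1.33 (SD, n = 5) CPM per kilobase in WT Non-Tg mice and 65.4 ± 8.41 in KO Tg-SwDI mice. Ccl6, a CCL ligand of myeloid cells that binds Ccr1, was second in every group, with 1.55 ± 0.581 CPM per kilobase in WT Non-Tg mice and 1.34 ± 0.150 in KO Non-Tg mice against 19.96 ± 2.73 in WT Tg-SwDI mice and 30.1 ± 4.69 in KO Tg-SwDI mice. In both Non-Tg groups Ccl12 came next, and its mean differed from that of Ccl6 by less than its own SD (0.862 and 0.645). Ccl3 came next in both Tg-SwDI groups, with 8.88 ± 1.22 and 16.9 ± 5.89 CPM per kilobase. Below these, Ccl4, Cxcl16, Ccl9 and Ccl12 in WT Tg-SwDI mice differed by less than their spread (1.29 to 1.73 CPM per kilobase). Ccl2 had the lowest level in every group but KO Non-Tg, where Ccl4 was lowest, and these genes differed there by less than their spread.

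**Figure D1:**
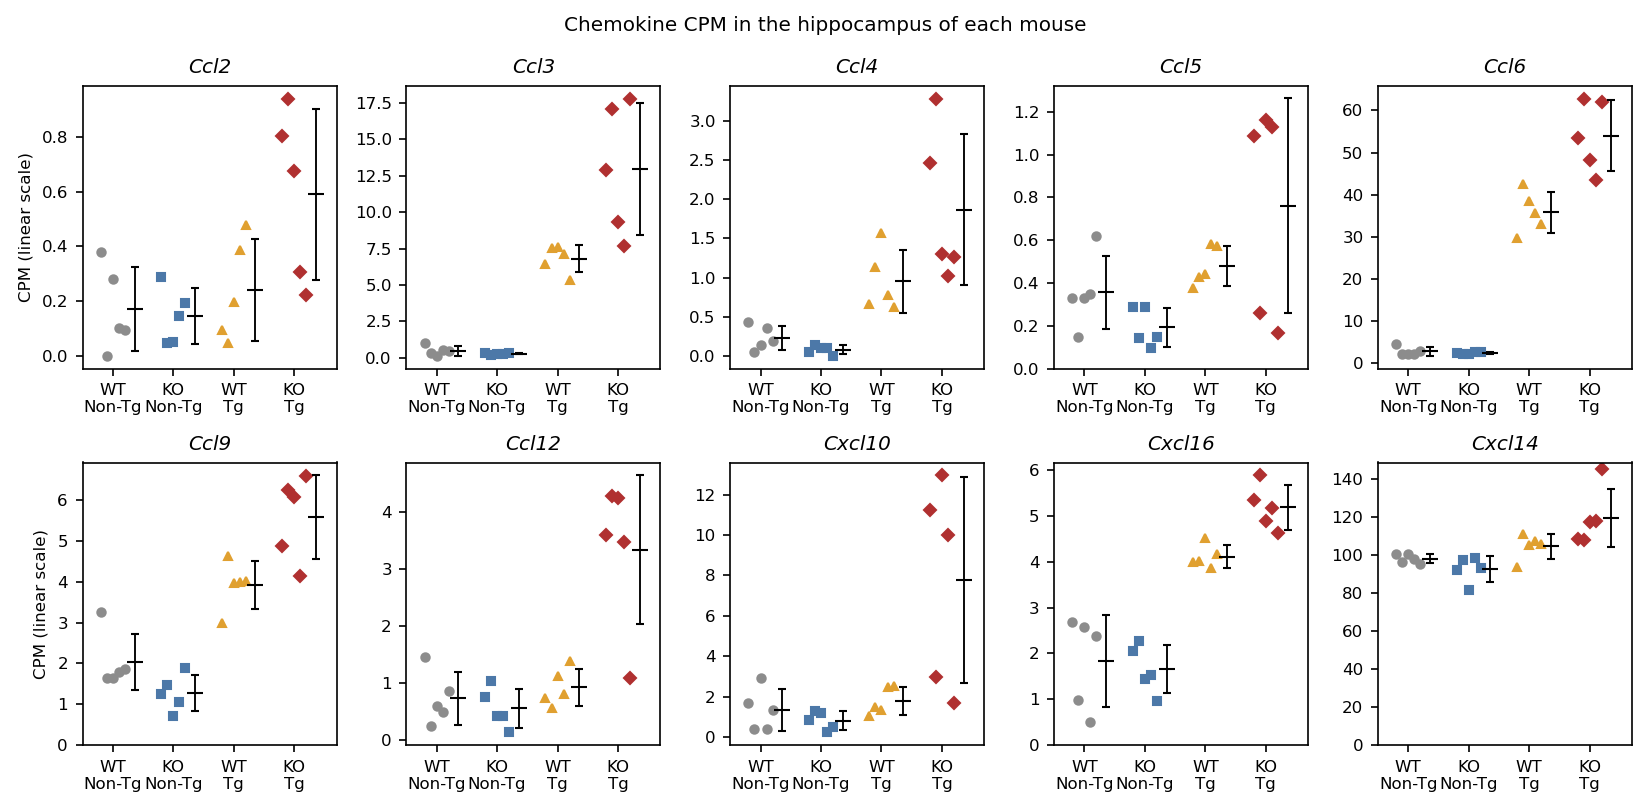
CPM (linear scale, a separate axis for each gene) of the 10 chemokine genes in each of the 20 mice, by group. Points are mice in order of replicate number, and the bar beside each group is the mean with the SD (n = 5). Ccl3 and Ccl6 are high in all 10 Tg-SwDI mice, whereas Cxcl10 and Ccl12 are high mainly in KO Tg-SwDI mice.

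The transgene was compared first in mice with miR-34a. Of the 10 genes, 9 passed the filter on low counts and Ccl2 did not. Ccl3, Ccl4 and Ccl5 passed it through the Tg-SwDI libraries, since few or none of the Non-Tg libraries held 10 or more reads of them. Counts and medians over the 9 genes are thus partly set by the filter in the transgene comparisons. In WT mice 5 of the 9 were higher with the transgene (Ccl3, Ccl4, Ccl6, Ccl9 and Cxcl16) and none was lower, by edgeR's quasi-likelihood test at a Benjamini-Hochberg adjusted p below 0.05 over the 16107 genes tested. Of all genes tested 3.94% were higher. The median log2 fold change was 0.94 over the 9 chemokines and 0.00 over all genes. The groups did not overlap for 4 of the 9 (Ccl3, Ccl4, Ccl6 and Cxcl16), with 5.1% of all genes higher without overlap.

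Ccl6 had 4.54, 2.03, 2.16, 2.25 and 2.96 CPM in WT Non-Tg mice (replicates 2, 3, 4, 6 and 7) and 29.8, 42.4, 38.5, 35.6 and 32.9 CPM in WT Tg-SwDI mice (replicates 3, 4, 5, 6 and 7). Every transgenic mouse lay far above every Non-Tg mouse. The log2 fold change was 3.68 (SE 0.17, adjusted p = 5.33e-12), a 12.8-fold difference. Ccl3, which encodes a macrophage inflammatory protein that binds Ccr1, had 1.04, 0.298, 0.141, 0.4998 and 0.430 CPM in WT Non-Tg mice and 6.43, 7.52, 7.61, 7.10 and 5.36 CPM in WT Tg-SwDI mice. Again the groups were far apart, with a log2 fold change of 3.80 (SE 0.31, adjusted p = 2.81e-08). Ccl4, a neighbour of Ccl3 that encodes a related macrophage inflammatory protein, was counted with 1 to 9 reads in WT Non-Tg and 13 to 32 reads in WT Tg-SwDI mice. Its log2 fold change was 2.01 (SE 0.46, adjusted p = 0.00692).

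The other genes that passed changed less. Cxcl16 had 2.70, 0.992, 2.58, 0.4998 and 2.39 CPM in WT Non-Tg mice and 3.99, 4.02, 4.52, 3.87 and 4.16 CPM in WT Tg-SwDI mice. The Non-Tg values fell into a lower pair, replicates 3 and 6, which were also the WT Non-Tg libraries with low choroid plexus signal, and an upper set of 3. On the log2 scale the fold change of Cxcl16 was 1.15 (SE 0.27, adjusted p = 0.0107), and the call was lost with the compared groups alone (adjusted p = 0.0710). Among the 7 libraries with high choroid plexus signal it was 0.68 (adjusted p = 0.00913). Ccl9, a CCL ligand of myeloid cells that binds Ccr1, had 1.64 to 3.26 CPM in WT Non-Tg and 3.005 to 4.64 CPM in WT Tg-SwDI mice, with a log2 fold change of 0.94 (SE 0.20, adjusted p = 0.00361). WT Non-Tg replicate 2, at 3.26 CPM, alone reached into the range of the transgenic mice. With high choroid plexus libraries alone the log2 fold change of Ccl9 was 0.79 (adjusted p = 0.149).

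Ccl2, Ccl5, Ccl12, Cxcl10 and Cxcl14 did not pass the test for the transgene in WT mice. The log2 fold change of Cxcl10 was 0.37 with a 95% confidence interval from -0.98 to 1.72, and that of Ccl12 was 0.33 (-0.63 to 1.28). Those of Ccl5, 0.42 (-0.49 to 1.33), and of Cxcl14, 0.09 (-0.04 to 0.23), were also within their error of 0. Of these 4, the Cxcl14 interval alone kept out a change of the size seen for Cxcl16. With high choroid plexus libraries alone the fold changes of Cxcl10 and Ccl12 were -0.34 and -0.26. With low choroid plexus libraries alone, where WT Tg-SwDI replicate 7 stands alone in its group, they were 2.65 and 1.87. Ccl2, with 0 to 8 reads per WT Non-Tg mouse and 1 to 10 per WT Tg-SwDI mouse, was fitted without the filter and had a log2 fold change of 0.45 (-0.82 to 1.73).

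In KO mice the transgene was accompanied by higher levels of all 9 chemokines that passed the filter, which Ccl3, Ccl4 and Ccl5 passed through Tg-SwDI libraries. Of all genes tested 12.5% were higher in this comparison, and the median log2 fold change was 2.56 over the 9 genes and 0.00 over all genes. The groups did not overlap for 8 of the 9, all but Ccl5, beside 8.47% of all genes. Ccl2, fitted without the filter, was higher as well (log2 fold change 2.005, SE 0.56, adjusted p = 0.0183). It rested on few reads, 1 to 6 per KO Non-Tg mouse and 4 to 18 per KO Tg-SwDI mouse, and the groups overlapped. Choroid plexus markers moved with this comparison, with 8 of 10 higher, since all KO Non-Tg libraries and 1 of the 5 KO Tg-SwDI libraries had low signal. With the choroid plexus score as a covariate 8 of the 9 chemokines passed the test beside 6.64% of all genes called higher, and Ccl5 did not (adjusted p = 0.0859). Among the 9 libraries with low choroid plexus signal, where KO Tg-SwDI replicate 2 stands alone and was assumed to vary like the other groups, 7 of the 9 passed beside 6.65% of all genes called higher, and Ccl5 (log2 0.43) and Cxcl14 (log2 0.22) did not.

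Ccl6 had 2.44, 2.04, 2.22, 2.69 and 2.61 CPM in KO Non-Tg mice (replicates 1, 2, 4, 7 and 8) and 53.4, 62.8, 48.2, 43.6 and 62.0 CPM in KO Tg-SwDI mice (replicates 1, 2, 3, 5 and 8). The lowest KO Tg-SwDI mouse was above the highest WT Tg-SwDI mouse. On the log2 scale the fold change was 4.49 (SE 0.17, adjusted p = 9.61e-14). Ccl3 had 0.335, 0.190, 0.290, 0.288 and 0.339 CPM in KO Non-Tg mice and 12.9, 17.1, 9.33, 7.69 and 17.8 CPM in KO Tg-SwDI mice, with a log2 fold change of 5.46 (SE 0.33, adjusted p = 7.23e-11). Replicates 2 and 8 of the KO Tg-SwDI group were highest for both genes. Ccl4 was counted with 1, 3, 2, 2 and 0 reads in KO Non-Tg mice and 52, 63, 27, 20 and 23 reads in KO Tg-SwDI mice. The log2 fold change of 4.50 (SE 0.51, adjusted p = 3.53e-07) rested on 8 reads in all in the KO Non-Tg group.

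Cxcl10, whose product draws T cells and which interferon is known to induce, had 0.861, 1.28, 1.21, 0.240 and 0.484 CPM in KO Non-Tg mice and 11.2, 2.97, 12.95, 9.999 and 1.71 CPM in KO Tg-SwDI mice. All transgenic mice were higher, but replicates 2 and 8 lay nearer to the Non-Tg range than to the other 3. On the log2 scale the fold change was 3.25 (SE 0.61, adjusted p = 0.00113). Ccl12, a mouse ligand of the monocyte receptor Ccr2, had 0.765, 1.04, 0.434, 0.432 and 0.145 CPM in KO Non-Tg mice and 3.60, 4.28, 4.25, 3.49 and 1.10 CPM in KO Tg-SwDI mice. Replicate 8 was close to the highest KO Non-Tg mouse, and the other 4 lay together well above it. The log2 fold change was 2.56 (SE 0.42, adjusted p = 0.000134).

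Ccl5, a chemokine of T cells and myeloid cells, had 0.287, 0.142, 0.290, 0.0959 and 0.145 CPM in KO Non-Tg mice and 1.09, 0.261, 1.16, 1.13 and 0.165 CPM in KO Tg-SwDI mice. It overlapped between the groups through replicates 2 and 8, the same mice that were low for Cxcl10. Its log2 fold change was 1.98 (SE 0.46, adjusted p = 0.00317). Ccl9 had 1.24, 1.47, 0.724, 1.06 and 1.89 CPM in KO Non-Tg mice and 4.88, 6.26, 6.09, 4.15 and 6.61 CPM in KO Tg-SwDI mice, and rose by 2.13 on the log2 scale (SE 0.21, adjusted p = 2.12e-08). Cxcl16 had 2.06, 2.28, 1.45, 1.54 and 0.967 CPM in KO Non-Tg mice and 5.35, 5.90, 4.88, 5.18 and 4.63 CPM in KO Tg-SwDI mice, and rose by 1.64 (SE 0.27, adjusted p = 0.000127). For both genes all KO Tg-SwDI mice lay above all KO Non-Tg mice. Cxcl14 had the smallest change of the 9, with 81.8 to 98.7 CPM in KO Non-Tg mice and 108 to 146 CPM in KO Tg-SwDI mice (log2 0.37, SE 0.07, adjusted p = 0.000269).

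**Figure D2:**
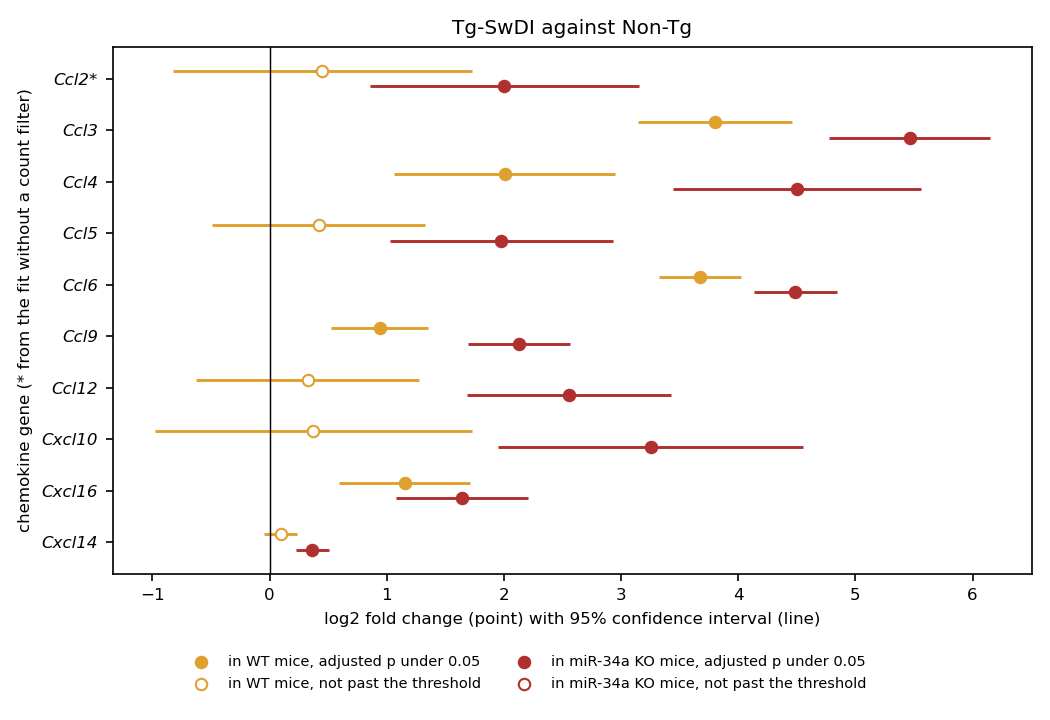
log2 fold change of Tg-SwDI against Non-Tg mice for each chemokine gene, in WT mice and in miR-34a KO mice, with the 95% confidence interval from edgeR's quasi-likelihood fit. Filled points have an adjusted p below 0.05 and Ccl2 comes from the fit without a count filter. Ccl12 and Cxcl10 sit at 0.33 and 0.37 in WT mice and at 2.56 and 3.25 in KO mice.

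The transgene effects in KO and WT mice share no samples, and their difference was tested as the interaction of transgene and miR-34a. All 9 estimates were above 0, with a median of 1.56 log2 units over the 9 genes and 0.01 over all genes. By edgeR's quasi-likelihood test 0 of the 9 passed the adjusted threshold, beside 0.428% of all genes with a positive interaction, and 8 of the 9 had an unadjusted p below 0.05, beside 9.38% of all genes with a positive interaction at that level. DESeq2 called 5 (Ccl3, Ccl6, Ccl9, Ccl12 and Cxcl10), beside 1.67% of all genes called higher by DESeq2. The smallest adjusted p was that of Ccl9, with an interaction of 1.19 (SE 0.29, adjusted p = 0.0563), followed by Ccl12 with 2.23 (SE 0.63, adjusted p = 0.0938). The estimate for Cxcl10 was 2.88 (95% confidence interval 0.97 to 4.79, adjusted p = 0.128) and that for Cxcl16 was 0.49 (-0.31 to 1.29). Choroid plexus markers moved with the interaction as well, with a median of 2.60 log2 units over that list. With the choroid plexus score as a covariate in edgeR all 9 estimates stayed above 0 and none passed. There Ccl9 had an adjusted p of 0.126, Ccl12 of 0.182 and Cxcl10 of 0.357, and the Cxcl10 estimate was 2.30. Among libraries with low choroid plexus signal alone the estimates for Cxcl10, Cxcl16 and Ccl5 were -0.79, -0.64 and -0.75, with 1 Tg-SwDI mouse in each arm.

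Within Tg-SwDI mice the deletion of miR-34a was compared next. Of the 9 chemokines 3 were higher in KO mice (Ccl3, Ccl6 and Ccl12) and none was lower. Of all genes tested 1.48% were higher. At an unadjusted p below 0.05 there were 7 of the 9, and 10.8% of all genes were higher at that level. The median log2 fold change was 0.68 over the 9 genes and 0.00 over all genes. Groups were without overlap for Ccl3, Ccl6 and Cxcl16, beside 2.04% of all genes. In the same comparison 4 of the 6 microglia and macrophage markers were higher (Csf1r, Itgam, Cd68 and Laptm5, log2 0.44 to 0.68), and Thy1 was higher by 0.37 (SE 0.06, adjusted p = 0.00416). The part of more microglial RNA, or of more transgene expression, in the chemokine values was not tested.

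Ccl12 had the largest difference that passed, with 0.751, 0.568, 1.13, 0.821 and 1.39 CPM in WT Tg-SwDI mice against the values above for KO Tg-SwDI mice. The KO mice were higher except for replicate 8, which lay inside the WT range. On the log2 scale the fold change was 1.85 (SE 0.39, adjusted p = 0.0189), and 1.94 (adjusted p = 0.0638) among the 8 Tg-SwDI libraries with high choroid plexus signal. Ccl3 was higher by 0.93 (SE 0.22, adjusted p = 0.0342) and Ccl6 by 0.59 (SE 0.13, adjusted p = 0.0253), and for both the lowest KO Tg-SwDI mouse stood just above the highest WT Tg-SwDI mouse (7.69 against 7.61 CPM for Ccl3 and 43.6 against 42.4 CPM for Ccl6). Among high choroid plexus libraries these were 0.74 and 0.51, and by edgeR 0 of the chemokines passed, with 8 at an unadjusted p below 0.05 beside 9.28% of all genes higher at that level.

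The calls for Ccl3 and Ccl6 were near the threshold. Leaving out WT Tg-SwDI replicate 3, 5, 6 or 7, or KO Tg-SwDI replicate 8, gave an adjusted p between 0.05005 and 0.0926 for each of these genes. Leaving out WT Tg-SwDI replicate 3 also left Ccl12 at an adjusted p of 0.0553, so that by edgeR 0 of the chemokines passed without that mouse, with 7 at an unadjusted p below 0.05 beside 9.26% of all genes higher at that level. With the compared groups alone and after the GC and length correction Ccl3 had an adjusted p of 0.105 and 0.0551.

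Cxcl10 had a larger estimate than Ccl12 but a wider spread. WT Tg-SwDI mice had 1.03, 1.47, 1.33, 2.46 and 2.54 CPM. KO Tg-SwDI replicates 1, 3 and 5 were at 9.999 to 12.95 CPM, replicate 2 at 2.97 CPM was slightly above the WT range, and replicate 8 at 1.71 CPM was within it. The log2 fold change was 2.14 (SE 0.55, adjusted p = 0.0539), and it passed by DESeq2 (adjusted p = 0.0172), by edgeR's exact test (0.0330), with the choroid plexus covariate (0.0395), with genes of mean CPM of at least 1 (0.0461) and without KO Tg-SwDI replicate 2 (0.0266) or 8 (log2 2.40, 0.0184). Between the single WT and the single KO Tg-SwDI library with low choroid plexus signal it was 0.23. Ccl4 (log2 0.97, adjusted p = 0.117), Ccl9 (0.51, adjusted p = 0.134), Ccl5 (0.68, adjusted p = 0.351), Cxcl16 (0.34, adjusted p = 0.482) and Cxcl14 (0.19, adjusted p = 0.124) did not pass. The Cxcl14 estimate was 0.11 without KO Tg-SwDI replicate 8. Ccl2 had a log2 fold change of 1.29 (SE 0.51, adjusted p = 0.271) without the filter.

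**Figure D3:**
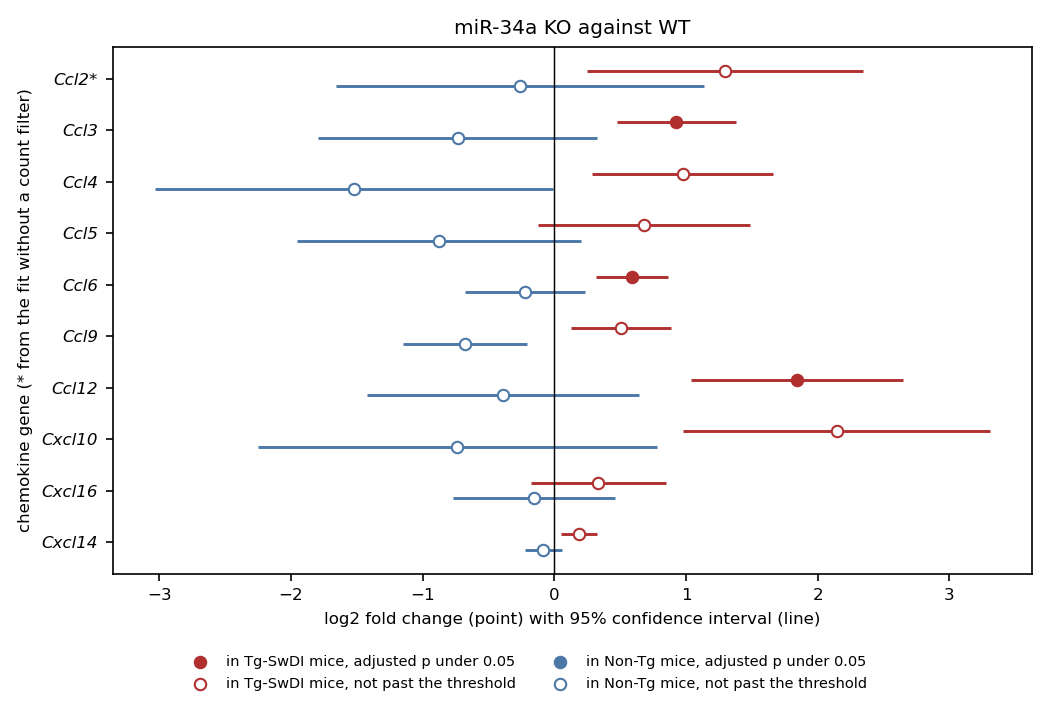
log2 fold change of miR-34a KO against WT mice for each chemokine gene, with and without the transgene, with the 95% confidence interval from edgeR's quasi-likelihood fit. Filled points have an adjusted p below 0.05, and Ccl2 comes from the fit without a count filter. Filled points are present for Ccl3, Ccl6 and Ccl12 in Tg-SwDI mice, and all estimates in Non-Tg mice are below 0 and unfilled.

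Without the transgene the deletion was not accompanied by a difference that passed the test. By edgeR 0 of the 9 chemokines were called in either direction, beside 0% of all genes called higher, 2 were lower at an unadjusted p below 0.05 (Ccl4 and Ccl9) beside 4.51% of all genes, and DESeq2 called 0 of them. All 9 estimates were below 0, with a median of -0.68 and 0.00 over all genes. The largest was Ccl4 at -1.52 (95% confidence interval -3.04 to -0.01), which rested on 24 reads in WT and 8 in KO Non-Tg mice. Ccl9 stood at -0.68 (-1.15 to -0.21, adjusted p = 0.508), and Ccl6 at -0.22 (-0.67 to 0.23). The choroid plexus list moved with this comparison, since its median log2 fold change was -2.67. Among the 7 Non-Tg libraries with low choroid plexus signal the estimates were 0.16 for Ccl6, 0.59 for Ccl12, 1.02 for Cxcl10 and 1.14 for Cxcl16, none past the threshold.

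**Figure D4:**
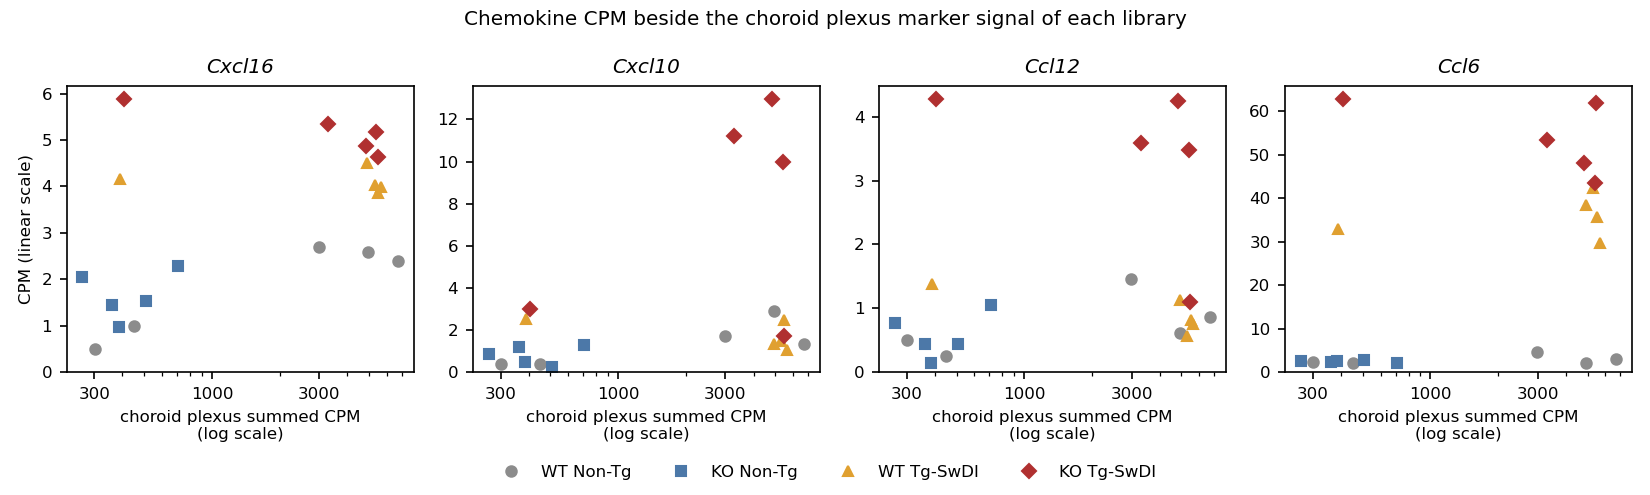
CPM (linear scale) of Cxcl16, Cxcl10, Ccl12 and Ccl6 in each mouse against the summed CPM of the choroid plexus marker list in the same library (log scale), with a symbol for each group. The WT Non-Tg libraries split into 2 with low and 3 with high signal, and Cxcl16 is 0.992 CPM or lower in the former and 2.39 CPM or higher in the latter, whereas Ccl6 does not separate them. The other groups do not show this for Cxcl16. KO Non-Tg libraries, all low in signal, have 0.967 to 2.28 CPM. The low-signal Tg-SwDI libraries have 4.16 CPM (WT replicate 7) and 5.90 CPM (KO replicate 2, the highest of its group).

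Within the KO Tg-SwDI group the chemokines did not vary together. Replicates 2 and 8 had the highest Ccl3 (17.1 and 17.8 CPM) and Ccl6 (62.8 and 62.0 CPM) and the lowest Cxcl10 (2.97 and 1.71 CPM) and Ccl5 (0.261 and 0.165 CPM). Replicates 3 and 5 had the lowest Ccl3 and Ccl6 of the group and Cxcl10 at 12.95 and 9.999 CPM. Ccl12 followed neither pair, being low in replicate 8 alone. Replicate 2 was the only library of the group with low choroid plexus signal, and replicate 8 had the highest Thy1 level (3318 CPM) and the highest summed pyramidal and granule cell markers (2866 CPM) of all 20 libraries. With 5 mice this is a description.

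**Figure D5:**
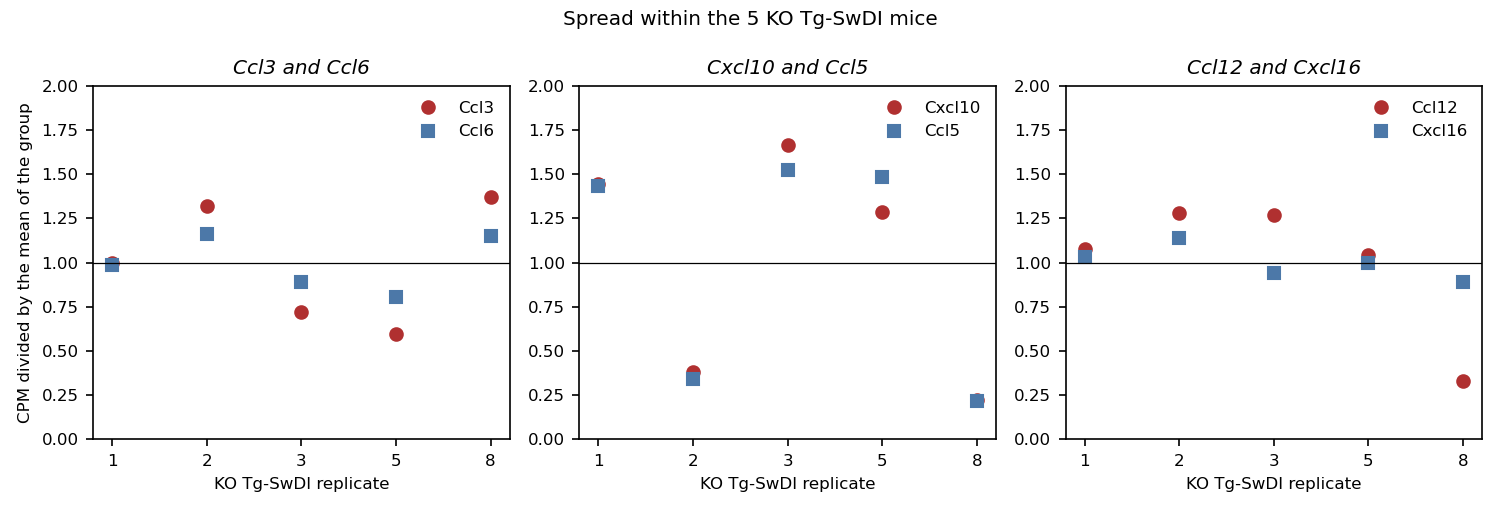
CPM of 6 chemokine genes in each of the 5 KO Tg-SwDI mice divided by the mean of the group (linear scale, line at the mean). Ccl3 and Ccl6 are above the mean in replicates 2 and 8, where Cxcl10 and Ccl5 are below it, and Ccl12 is low in replicate 8.

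Over all 20 mice, the genes most like each chemokine in log2 CPM were listed by Pearson's r, and these values contain the group differences. Ccl6 was most like Trem2 (r = 0.995), Tyrobp and Cst7, and Ccl3 was most like Ccl6 (r = 0.991), Cd37 and Trem2. Trem2 and Tyrobp encode a receptor of microglia and its signalling adaptor. The nearest genes of Ccl4 were Rasal3 (r = 0.960), Abi3 and Nckap1l, and those of Ccl9 were Lag3 (r = 0.953), Clu and Lcp1. Cxcl10 was most like Oasl2 (r = 0.943), Irgm1 and H2-Q4, Ccl12 like Ifi207 (r = 0.915), Gbp5 and Oas1a, and Ccl5 like H2-T22 (r = 0.903), Herc6 and Ifi44, most of which interferon is known to induce. Cxcl16 was nearest to Clic1 (r = 0.927), Phf11b and 9930111J21Rik2, and Cxcl14 to Dazap2 (r = 0.933), Pmepa1 and Atp1b2.

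Among the chemokine receptor genes that passed the filter, Cx3cr1, the receptor of fractalkine on microglia, was higher with the transgene in WT mice (log2 0.87, SE 0.09, adjusted p = 4.65e-07) and in KO mice (log2 1.25, SE 0.09, adjusted p = 4.94e-10). Cxcr4, the receptor of Cxcl12, was higher in WT mice by 0.80 (SE 0.13, adjusted p = 0.000118) and in KO mice by 1.27 (SE 0.13, adjusted p = 2.77e-08). Ccrl2 was higher in KO mice (log2 1.09, SE 0.23, adjusted p = 0.00133). None of these passed for the deletion in Tg-SwDI mice or for the interaction. Ccr1 (mean 0.221 to 0.509 CPM per group) and Ccr2 (0.336 to 0.487 CPM) did not pass in any comparison. The receptors of Cxcl10 and Cxcl16 were close to the floor, since Cxcr3 had 0 to 12 reads per mouse and Cxcr6 had 0 to 14, and neither was tested.

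Of 26 other chemokine ligands 9 passed the filter. Cxcl5, a neutrophil chemokine, was higher with the transgene in WT (log2 1.86, SE 0.32, adjusted p = 0.000721) and in KO mice (log2 2.45, SE 0.31, adjusted p = 1.06e-05). Cxcl13, a B cell chemokine, was the only one higher with the deletion in Tg-SwDI mice (log2 2.35, SE 0.56, adjusted p = 0.0411), with 4.73, 1.41, 2.95, 6.15 and 0.385 CPM in KO Tg-SwDI mice and 0.196 to 1.16 CPM in WT Tg-SwDI mice. Cxcl9, which like Cxcl10 binds Cxcr3, was higher with the transgene in KO mice (log2 4.78, SE 1.01, adjusted p = 0.00202), from 0 or 1 read per KO Non-Tg mouse to 1.70, 0.313, 1.16, 1.33 and 0.165 CPM. Cxcl13 was higher with the transgene in KO mice too (log2 4.95, SE 0.77, adjusted p = 0.000136). It had 1 to 4 reads per KO Non-Tg mouse and 7 to 120 per KO Tg-SwDI mouse. Both Cxcl9 and Cxcl13 passed the filter mainly through Tg-SwDI libraries, so their transgene calls are partly set by the filter. Cxcl9 and Cxcl13 were lowest in replicates 2 and 8 of the KO Tg-SwDI group, as Cxcl10 and Ccl5 were.

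Of 10 genes for shedding, trimming and receptor coupling, all tested, 3 were higher with the transgene in WT mice (Rgs1, Adam17 and Rgs10) and 5 in KO mice (these with Gnai2 and Arrb2). Rgs1, a regulator of G protein signalling in leukocytes, rose by 2.99 in WT and by 2.83 in KO mice on the log2 scale, Rgs10 by 0.60 and 0.85, and Arrb2 by 0.23 in KO mice. Rgs1 had 2 to 5 reads per WT Non-Tg mouse and 0 to 8 per KO Non-Tg mouse. In WT and KO Tg-SwDI mice it had 16 to 39 and 17 to 37 reads. It thus passed the filter through the Tg-SwDI libraries, and its transgene calls are partly set by the filter. Adam17 encodes a shedding protease, and it rose by 0.46 in WT mice (SE 0.09, adjusted p = 0.000851) and by 0.48 in KO mice (SE 0.09, adjusted p = 0.000294). Gnai2, a G protein subunit that chemokine receptors signal through, was higher with the deletion in Tg-SwDI mice, with 283 to 372 CPM against 228 to 246 CPM (log2 0.37, SE 0.06, adjusted p = 0.00287). Its interaction also passed the test (0.41, SE 0.09, adjusted p = 0.0216). Adam10, Dpp4, Arrb1, Gnai3 and Grk2 did not pass in any comparison.

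Markers of blood leukocytes were near the floor of 3 reads in these libraries. T and NK cell genes, none of which passed the filter, summed to 0.4998 to 1.75 CPM in WT Non-Tg, 0.338 to 1.14 CPM in KO Non-Tg, 0.993 to 1.74 CPM in WT Tg-SwDI and 1.30 to 2.56 CPM in KO Tg-SwDI libraries. This list thus moved with the transgene in KO mice without overlap, and its part in the values of Ccl5 and Cxcl10 was not tested. Monocyte and neutrophil genes summed to between 0.313 and 1.81 CPM with Ly6g at 0 in every library of 3 groups and Chil3 at 0 in every KO Tg-SwDI library. Border macrophage genes (7.03 to 20.2 summed CPM) had 0 of 6 called in any comparison. Of 10 homeostatic microglia genes all were higher with the transgene in WT and in KO mice, and 2 were higher with the deletion in Tg-SwDI mice. Of 6 astrocyte genes 4 were higher with the transgene in WT and in KO mice, and 1 was higher with the deletion in transgenic mice.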

How the data were processed

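Per the labels and the study's methods, stranded oligo(dT) libraries of hippocampal RNA were sequenced on DNBSEQ, and the authors aligned reads with STAR to mm10 and deposited raw counts per gene from featureCounts, for which versions, strand setting and treatment of multi-mapped reads are not given in the sources used here. Columns were matched to mice by title, and 0 columns were left unused. The members and lists were chosen with earlier results of these data known. Genes were kept by edgeR's filter (minimum count 10, minimum total 15), leaving 16107, scaled by TMM, and tested over all 20 mice in 1 model of 4 groups with edgeR 4.0.16 (quasi-likelihood test, Benjamini-Hochberg adjusted over all genes tested, threshold 0.05) in R 4.3.3. The study describes its cohorts as littermates, but which mice shared a litter, and any batches, are not stated. Litters were not modelled, so p-values measure the spread between these mice. DESeq2 1.42.0, edgeR's exact test, other scalings and filters, a replicate block, a choroid plexus covariate, a GC and length correction and each mouse left out were alternatives, and the split of libraries at 1000 summed choroid plexus CPM was added after seeing the data. The fit was tested on simulated data. Named genes were the 10 chemokines, receptors of the members (1 item of the receptor list is not reported here), up to 6 called genes per list and comparison, and the 3 genes most like each member by Pearson's r of log2 CPM (prior count 2). Positions, exonic lengths and 3'UTRs came from GENCODE M21, which matched 38872 of the 39056 genes, and microRNA and promoter sequences from RefSeq (GRCm38.p6), read in Python 3.11.15. Intervals and the floor of 3 counts cover counting error or the spread between mice only.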

Additional observations from a re-analysis of the deposited data

Results flagged for a closer look

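In 3 of the 40 sets of 5 mice (10 genes in 4 groups), 1 mouse lay apart from the others by Dixon's test, and chance gives about 1 in 20. Ccl9 stood high in WT Non-Tg replicate 2 (3.26 CPM, the other 4 between 1.64 and 1.86 CPM). Ccl12 stood low in KO Tg-SwDI replicate 8 (1.10 CPM, the other 4 between 3.49 and 4.28 CPM). Cxcl14 stood high in the same KO Tg-SwDI replicate 8 (146 CPM, the other 4 between 108 and 118 CPM), the library with the highest Thy1 level.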

How the results depend on the processing

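Over 45 results for single chemokines and their alternatives, 1363 of 1425 values kept their direction and their side of the threshold, 28 lost the call, 19 gained it and 15 changed sign. Most of these results were not called in the main fit, and most alternatives left out 1 mouse, often of another group. For the deletion in Tg-SwDI mice, Ccl3 lost its call in 10 of 33 alternatives, Ccl6 in 8 and Ccl12 in 3. Cxcl10 gained a call there in 6 of 33. The count of chemokines higher with the deletion in Tg-SwDI mice, 3, was 4 by DESeq2, by the exact test, with genes of mean CPM of at least 1 and with the choroid plexus covariate (Cxcl10 gained), 2 after the GC and length correction and with the compared groups alone, 1 without the filter, 1 with the replicate block (Ccl3 0.33 and Ccl6 0.41 on the log2 scale) and 0 in libraries with high choroid plexus signal alone, and it was 0 to 4 with 1 mouse left out (0 without WT Tg-SwDI replicate 3, 1 without WT Tg-SwDI replicate 5, 6 or 7). The interaction count, 0, was 5 by DESeq2, 1 without the filter and 0 to 1 with 1 mouse left out (1 without WT Non-Tg replicate 3, KO Non-Tg replicate 8 or KO Tg-SwDI replicate 1, 2, 5 or 8). Shares of all genes called under each setting are not set beside these counts here. A change in a count thus cannot be told from a change in calls over all genes. The cause of these changes was not tested. Over all genes, same-numbered mice of different groups did not deviate together (16 pairs, r from -0.40 to 0.15, other 134 pairs -0.37 to 0.50). Whether same-numbered mice shared a litter or a batch is not stated, and this check cannot show it. For KO against WT Non-Tg, Cxcl16 turned to 0.10 with the choroid plexus covariate, and with 1 mouse left out Ccl6 was -0.31 to 0.028, Ccl12 -0.73 to 0.022 and Cxcl16 -0.39 to 0.027, above 0 without WT Non-Tg replicate 2 (Cxcl16 also without replicate 4). In libraries with low choroid plexus signal alone, Ccl6 (0.16), Ccl12 (0.59), Cxcl10 (1.02) and Cxcl16 (1.14) turned in that comparison, Ccl5 (-1.12) between the single WT and the single KO Tg-SwDI library there, and Ccl5 (-0.75), Cxcl10 (-0.79) and Cxcl16 (-0.64) in the interaction, which rests on the same pair. In those with high signal alone, Ccl12 (-0.26) and Cxcl10 (-0.34) turned for the transgene in WT mice. In those with low signal alone, where WT Tg-SwDI replicate 7 stands alone in its group, these estimates were 1.87 and 2.65. Depth limits Ccl2, Ccl3, Ccl4 and Ccl5, which had few reads in Non-Tg mice. For Ccl3 these were 3 to 22 reads per WT Non-Tg mouse and 4 to 7 per KO Non-Tg mouse, on which the size of its transgene fold changes rests.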
